A study of Mus musculus with 22 samples.

Results

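The 8 genes described here, Ppara, Cpt1a, Acadl, Acadm, Hadha, Acaa2, Acot2 and Ehhadh, carry or control the breakdown of fatty acids, and were taken by name from the count table. They are 8 of 55367 listed genes, and all 8 were among the 22409 that passed the filter on low counts. The 22 RNA-seq libraries came from livers of mice 20 weeks old; the labels give the cell type as HSC, which in liver work usually means hepatic stellate cells, and no strain. In the 10 control libraries the mice ate chow. In the 12 diet libraries they ate CDA-HFD, a high-fat diet that lacks choline and has defined amino acids. It was given from 8 weeks of age for 12 weeks by one field of the labels and for 6 months by another, so its length is not settled. Mice were killed at zeitgeber time (ZT) 0 (lights on), 6, 12 (lights off) or 18 h. The control groups held 3, 2, 2 and 3 libraries in that order of times and each diet group held 3. The labels do not tie each library to a mouse of its own. The p-values below therefore reflect only how far these libraries spread, and part of that spread may be technical.

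Long-chain fatty acids enter mitochondria as carnitine esters, through carnitine palmitoyltransferase on the outer membrane. Inside, each turn of the beta-oxidation spiral oxidises, hydrates, oxidises again and cleaves the acyl-CoA, and releases acetyl-CoA. Peroxisomes run a similar spiral on very long chains and on dicarboxylic acids. In liver the nuclear receptor PPAR-alpha, bound to DNA with RXR, drives many of these genes when fatty acids are plentiful, and the pathway feeds ketone body production in hepatocytes.

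The bases upstream of the start were taken from a set of RefSeq promoters (GRCm38.p6) for 7 of the 8 genes. The set used here had no entry for Acaa2. The 250 bases before the start were searched on both strands. The DR1 element bound by PPAR and RXR was written as AGGNCANAGGNCA. The hexamer it repeats, the core hexamer, was AGGTCA, which the REV-ERB/ROR element AANTAGGTCA also contains. The clock-related E-box was CACGTG and the D-box TTATGNAA. None of the 7 upstream sequences held a DR1 element, which was in 0.338% of 32851 RefSeq promoters searched over the same length. Likewise none held an E-box (6.02% of promoters), a D-box (3.07%) or a REV-ERB/ROR element (0.177%). The core hexamer was in those of Cpt1a and Acadm, and in 14.0% of all promoters. A match is a description of letters, and a missing one says nothing of sites elsewhere. The sequences of Acadl and Acot2 are shown because these were the members higher under the diet, that of Cpt1a because it was lower and varied with time, and that of Acadm because it holds the other core hexamer. Each runs 5′ to 3′ on the strand of its gene, and capitals mark the core hexamer, which lies on the opposite strand and so reads TGACCT. All bases shown for Cpt1a lie within the gene as GENCODE annotates it, from 3322334 on the plus strand. The last of them lie in its first exon there.
Acadl, chr1:66863310-66863559, minus strand: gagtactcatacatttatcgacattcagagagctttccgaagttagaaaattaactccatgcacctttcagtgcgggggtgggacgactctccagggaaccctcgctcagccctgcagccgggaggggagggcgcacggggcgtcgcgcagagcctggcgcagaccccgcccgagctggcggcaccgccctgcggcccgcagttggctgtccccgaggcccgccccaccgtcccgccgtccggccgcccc
Acot2, chr12:83987611-83987860, plus strand: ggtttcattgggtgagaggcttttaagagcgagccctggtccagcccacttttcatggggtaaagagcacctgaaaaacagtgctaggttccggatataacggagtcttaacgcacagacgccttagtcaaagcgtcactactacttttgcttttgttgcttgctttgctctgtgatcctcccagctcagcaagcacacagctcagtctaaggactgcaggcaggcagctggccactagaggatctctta
Cpt1a, chr19:3323051-3323300, plus strand: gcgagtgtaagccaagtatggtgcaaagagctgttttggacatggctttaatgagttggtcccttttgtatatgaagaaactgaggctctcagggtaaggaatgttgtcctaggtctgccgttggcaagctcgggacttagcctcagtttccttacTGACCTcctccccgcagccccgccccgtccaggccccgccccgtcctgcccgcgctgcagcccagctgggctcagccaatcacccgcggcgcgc
Acadm, chr3:153944644-153944893, minus strand: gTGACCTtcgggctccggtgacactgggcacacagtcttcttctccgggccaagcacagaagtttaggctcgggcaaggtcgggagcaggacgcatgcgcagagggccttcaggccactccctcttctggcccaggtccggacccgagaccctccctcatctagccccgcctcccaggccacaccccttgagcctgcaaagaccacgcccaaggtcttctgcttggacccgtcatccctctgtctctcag
The core hexamer of Cpt1a lay at bases -94 to -89 from the start and that of Acadm at -249 to -244. Over these 250 bases the GC content was 68.0% for Acadl, 50.4% for Acot2, 59.6% for Cpt1a and 64.0% for Acadm, against a median of 52.4% over all promoters.

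Each library held 19754805 to 41665623 counts in genes. Replicate 2 of control ZT0 and replicate 1 of control ZT18 stood apart from the other control libraries on the first and on the second principal component. The libraries were bulk RNA of mixed cells. Markers of endothelium summed to 20240 to 39450 CPM (counts scaled to a common library size by TMM) in control and to 1320 to 3110 under the diet, and 15 of 15 were lower. Stellate cell and fibroblast markers, those of the labelled type, summed to 182 to 935 CPM in control and 147 to 522 under the diet, so in control they lay far below those of endothelium. Of 25 hepatocyte markers 19 were higher and 2 lower, with summed levels of 596 to 1074 CPM in control and 1369 to 3004 under the diet, so the ranges did not overlap. Markers of other cell types were higher under the diet too. For lymphocytes (T, NK and B) 15 of 15 rose, summing to 503 to 1964 CPM in control and 2876 to 6753 under the diet. So were 9 of 9 of cholangiocytes (371 to 969 and 1368 to 5150 CPM) and 9 of 10 of neutrophils and dendritic cells (283 to 968 and 1183 to 1712 CPM), again without overlap. Of 15 Kupffer cell and macrophage markers 12 were higher and 1 lower, and their summed levels overlapped (535 to 3448 and 1592 to 4537 CPM). Of 7 erythroid markers 5 were higher and 0 lower, again with overlap (1222 to 3275 and 1391 to 4788 CPM). The part of any of these cells in the results below was tested only for hepatocytes, by the covariate fit given last. No marker of these lists was at 0 in all libraries of a diet. Fewer cells of a type and less RNA per cell cannot be told apart in such data.

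The first question is how the diet changed the oxidation genes over all 4 times. Acadl and Acot2 rose, Cpt1a, Acaa2 and Hadha fell, and Acadm, Ppara and Ehhadh did not pass the test. Among all tested genes 52.4% were called at an adjusted p under 0.05 (27.5% higher and 24.9% lower), so 5 of 8 called members is near the background. The members' median log2 difference, diet minus control, was -0.22, against 0.08 over all tested genes. That background includes many genes with low counts. Among genes with a mean CPM of at least 5, 8222 of 10804 were called over all times. In that fit Acadl, Acot2, Cpt1a and Acaa2 were called, Acadm and Hadha were not, and Ppara and Ehhadh were left out. The direction of Hadha depended on the scaling, as given with that gene below. The summed level of the 8 genes ranged from 534 to 788 CPM in control (median 683) and from 532 to 663 CPM under the diet (median 616), and these ranges overlap.

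**Figure D1:**
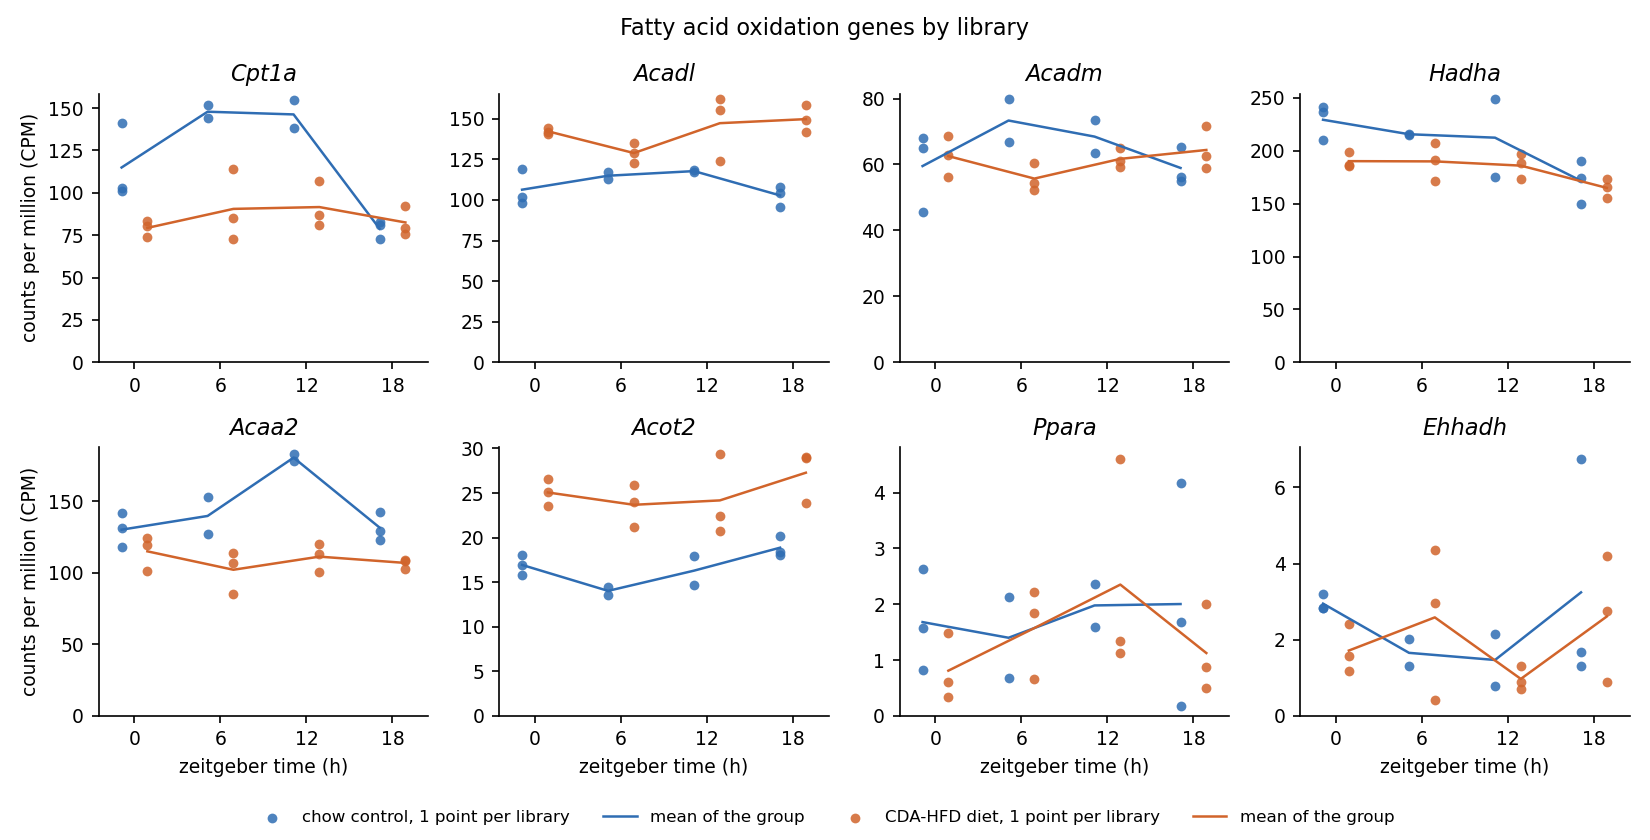
Level of each gene in CPM (vertical axis, from 0) against zeitgeber time in hours, with 1 point per library and lines through the group means, for chow control (blue) and CDA-HFD diet (orange); points are shifted sideways by diet for clarity. All 12 diet libraries lie above all 10 control libraries for Acadl and Acot2, and control Cpt1a is lowest at ZT18.

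Levels can be set beside each other only per length of transcript. Per kb of the principal transcript, the mean levels over the 10 control libraries were 94.0 ± 14.8 CPM (SD) for Acaa2, 57.04 ± 4.57 for Acadl, 51.3 ± 8.11 for Hadha, 31.2 ± 4.74 for Acadm and 27.1 ± 7.42 for Cpt1a. Far below came Acot2 at 7.65 ± 0.96, Ehhadh at 0.833 ± 0.566 and Ppara at 0.522 ± 0.334 CPM per kb. Neighbours in this order overlap within 1 SD for Acadl and Hadha, for Acadm and Cpt1a, and for Ehhadh and Ppara. Under the diet (n = 12) the mean of Acadl, 74.2 ± 6.75 CPM per kb, was above that of Acaa2, 71.8 ± 6.94, and these 2 overlap. With the length of all exons in place of the principal transcript, the control levels of Hadha, Acadm and Cpt1a were 23.6, 16.3 and 15.3 CPM per kb, in the same order. That length is 8730 bases against 4017 for Hadha, but 2005 against 1916 for Acadl. The overlap of Acadl and Hadha therefore holds only per principal transcript.

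Cpt1a encodes the liver form of the carnitine palmitoyltransferase that commits long-chain fatty acids to mitochondria. It lies on chromosome 19 at 3322334 to 3385733 (GRCm38). The control libraries held 103, 101 and 141 CPM at ZT0, 144 and 152 CPM at ZT6, 155 and 138 CPM at ZT12, and 82.5, 81.2 and 72.8 CPM at ZT18. The diet libraries held 74.2, 80.3 and 83.4 CPM at ZT0, 114.0, 85.0 and 72.6 CPM at ZT6, 107, 86.9 and 81.03 CPM at ZT12, and 76.0, 92.1 and 79.5 CPM at ZT18. Every control library of ZT0, ZT6 and ZT12 lay above every diet library of the same time, while at ZT18 the groups overlapped. Over all times Cpt1a changed by -0.46 ± 0.08 (log2, SE), a control level 1.38-fold the diet level (adjusted p = 6.79e-05). By time the log2 difference was -0.54 ± 0.16 at ZT0 (adjusted p = 0.0121), -0.71 ± 0.17 at ZT6 (0.00307), -0.68 ± 0.17 at ZT12 (0.00486) and 0.07 ± 0.16 at ZT18 (0.794). The interval of 2 SE at ZT18 ran from -0.245 to 0.38. The ZT0 call ended without control replicate 3 (adjusted p = 0.152) or diet replicate 1 (0.0502), and the ZT12 call without control replicate 1 (0.0746).

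Acadl encodes long-chain acyl-CoA dehydrogenase, which opens the spiral on long and branched chains. It lies on chromosome 1 at 66830839 to 66863277. In control it held 102, 98.4 and 119 CPM at ZT0, 117 and 113 CPM at ZT6, 118 and 117 CPM at ZT12, and 95.8, 104 and 108 CPM at ZT18. Under the diet it held 142, 144 and 141 CPM at ZT0, 129, 135 and 123 CPM at ZT6, 156, 124 and 162 CPM at ZT12, and 142, 149 and 159 CPM at ZT18. The lowest diet library stood above the highest control library, and the widest spread within a group was at diet ZT12. Over all times the gene changed by 0.36 ± 0.06 (log2), or 1.29-fold (adjusted p = 1.18e-05). It was higher at ZT0 (0.42 ± 0.11, adjusted p = 0.00379), at ZT12 (0.32 ± 0.12, 0.0436) and at ZT18 (0.54 ± 0.11, 0.000383), and was not called at ZT6 (0.17 ± 0.12, 0.337). The ZT12 call is fragile: leaving out any of 12 single libraries ended it, with adjusted p from 0.0503 to 0.221, as did no filter on low counts (0.214) and a fit of the compared groups alone (0.128). The ZT6 difference was called with scaling by library size only (log2 0.43, adjusted p = 0.00474).

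Acadm encodes the medium-chain acyl-CoA dehydrogenase, which takes over as the chain shortens, and lies on chromosome 3 at 153922357 to 153944632. It ranged from 45.5 to 79.8 CPM in control (median 65.2) and from 52.3 to 71.7 CPM under the diet (median 60.7). The diet libraries all fell inside the control range. Its log2 difference over all times was -0.09 ± 0.07 (adjusted p = 0.352), with an interval of 2 SE from -0.24 to 0.06. At ZT6 the controls held 66.8 and 79.8 CPM and the diet libraries 52.3, 60.5 and 54.3 CPM, without overlap, and the difference of -0.40 ± 0.16 missed the threshold (adjusted p = 0.0626). It passed with replicate 2 of control ZT0 left out (adjusted p = 0.0212), in DESeq2 (0.0499) and in a fit of the compared groups alone (0.034). At ZT0, ZT12 and ZT18 the log2 differences were 0.07, -0.15 and 0.13, with adjusted p of 0.769, 0.526 and 0.537.

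Hadha encodes the alpha subunit of the mitochondrial trifunctional protein, which hydrates and then oxidises long chains. It lies on chromosome 5 at 30118304 to 30155162, head to head with Hadhb, which encodes the thiolase subunit of the same complex. Hadha ranged from 150 to 249 CPM in control (median 213) and from 155 to 207 CPM under the diet (median 186). The ranges overlapped, though all 12 diet libraries were below the control median. Its log2 difference over all times was -0.18 ± 0.06 (adjusted p = 0.026), and with scaling by library size only it was 0.005 (adjusted p = 0.977). The call also ended with RLE scaling (adjusted p = 0.0564), in DESeq2 (0.0506), under either other filter (0.112 and 0.169), without ZT0, ZT6 or ZT12 (0.0786 to 0.101), and without replicate 1 or 2 of control ZT6, replicate 1 of control ZT12 or replicate 3 of diet ZT6 (0.0504 to 0.195). No single time was called, with log2 differences from -0.27 ± 0.12 at ZT0 (adjusted p = 0.104) to -0.06 ± 0.12 at ZT18 (0.768). Hadhb held 26.01 ± 2.47 CPM in control and 21.5 ± 1.22 CPM under the diet (SD, n = 10 and 12). Its log2 difference was -0.27 ± 0.07 (adjusted p = 0.00292) in the main fit. Hadhb was named here after its values were seen, as the partner of Hadha. Its results under the other scalings and filters and with libraries left out are not given here.

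Acaa2 encodes a mitochondrial 3-ketoacyl-CoA thiolase, which cleaves acetyl-CoA from the chain at the end of a turn. It lies on chromosome 18 at 74779197 to 74806208. In control it held 131, 118 and 141 CPM at ZT0, 153 and 127 CPM at ZT6, 183 and 178 CPM at ZT12, and 143, 123 and 129 CPM at ZT18. Under the diet it held 124, 119 and 102 CPM at ZT0, 107, 114 and 85.4 CPM at ZT6, 113, 119.9 and 101 CPM at ZT12, and 103, 108 and 109 CPM at ZT18. The groups overlapped at ZT0 and were apart at the other 3 times, and 9 of 12 diet libraries were below every control library. Over all times Acaa2 changed by -0.41 ± 0.06 (log2; control 1.33-fold the diet level, adjusted p = 1.44e-05). By time it was lower at ZT12 (-0.70 ± 0.13, adjusted p = 0.000361) and at ZT6 (-0.45 ± 0.13, 0.0127), and was not called at ZT18 (-0.30 ± 0.12, 0.0653) or ZT0 (-0.18 ± 0.12, 0.306). The ZT6 call ended without control replicate 1 (adjusted p = 0.232), without diet replicate 3 (0.0736), with no filter on low counts (0.0826) and with scaling by library size only (0.284). The ZT18 difference passed once replicate 2 of control ZT0 (adjusted p = 0.0483) or replicate 3 of diet ZT6 (0.0458) was left out.

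The opposite shifts of Acadl and Acaa2 can be read inside each library, where no scaling enters. The ratio of Acadl counts to Acaa2 counts ran from 0.646 to 0.89 in control (median 0.806) and from 1.03 to 1.61 under the diet (median 1.38). Every control library held fewer Acadl than Acaa2 counts and every diet library more. By contrast, the ratio of Acadl to Acadm overlapped between the diets, from 1.41 to 2.16 in control and from 1.91 to 2.66 under the diet. These ratios are set by genes already described and carry no test.

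**Figure D2:**
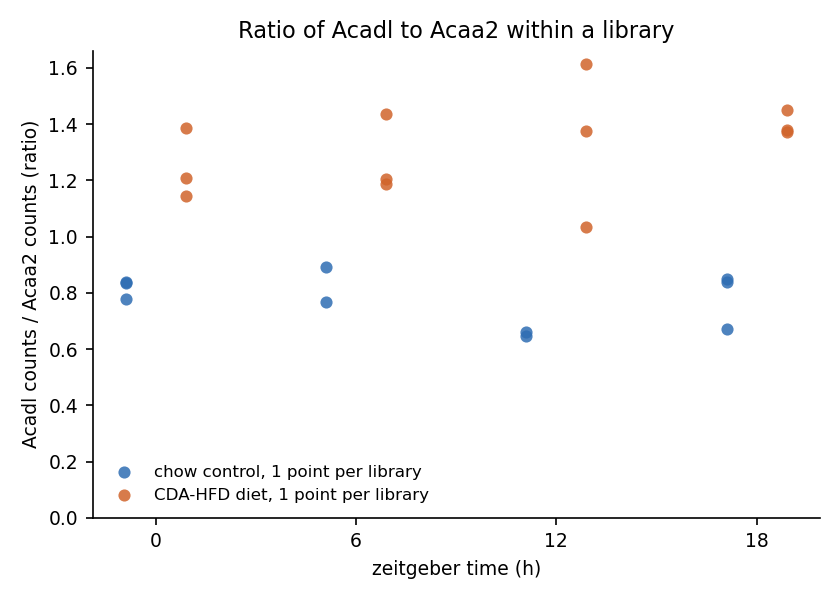
Acadl counts divided by Acaa2 counts in each library (vertical axis, a ratio) against zeitgeber time in hours, for chow control (blue) and CDA-HFD diet (orange), 1 point per library. The control points lie from 0.646 to 0.89 and the diet points from 1.03 to 1.61.

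Acot2 encodes a mitochondrial thioesterase, which frees fatty acids from their CoA esters. It lies on chromosome 12 at 83987861 to 83993873. In control it held 18.1, 15.8 and 17.0 CPM at ZT0, 13.5 and 14.5 CPM at ZT6, 17.9 and 14.7 CPM at ZT12, and 20.2, 17.99 and 18.4 CPM at ZT18. Under the diet it held 23.6, 26.6 and 25.1 CPM at ZT0, 25.9, 23.9 and 21.2 CPM at ZT6, 29.4, 20.8 and 22.4 CPM at ZT12, and 29.04, 28.9 and 23.9 CPM at ZT18. No diet library reached down to the highest control library. Acadl and Acot2 were the 2 members whose diets did not overlap over all libraries, as held for 17.1% of tested genes. The change over all times was 0.61 ± 0.08 (log2), or 1.52-fold (adjusted p = 2.31e-06). Acot2 was the member called higher at all 4 times, by 0.57 ± 0.15 at ZT0 (adjusted p = 0.00727), 0.76 ± 0.18 at ZT6 (0.00208), 0.57 ± 0.17 at ZT12 (0.0161) and 0.53 ± 0.15 at ZT18 (0.0105). The ZT12 call ended without control replicate 2 (adjusted p = 0.246) or diet replicate 1 (0.0901), and in a fit of the compared groups alone (0.0927). With no filter on low counts the calls at ZT0 (0.0504), ZT12 (0.118) and ZT18 (0.0749) ended.

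Acot1, the cytosolic thioesterase, is a close copy and neighbour of Acot2, so reads shared by both could have been split or dropped in the counting. It held 0.0484 to 2.14 CPM in control and 1.84 to 14.5 CPM under the diet. These ranges overlapped, and the highest value was replicate 1 of diet ZT12, the library that was also highest for Acot2. Acot1 changed by 2.01 ± 0.44 (log2, adjusted p = 0.000538).

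Ppara encodes PPAR-alpha itself and lies on chromosome 15 at 85734983 to 85802819. It was rare here, with 5 to 100 counts per control library and 7 to 122 per diet library. These are 0.171 to 4.16 CPM in control (median 1.63) and 0.335 to 4.59 CPM under the diet (median 1.23). The diets overlapped almost whole, and replicates of 1 group differed as much as the groups did: the 3 control libraries of ZT18 held 4.16, 1.68 and 0.171 CPM. The log2 difference over all times was -0.36 ± 0.46 (adjusted p = 0.55), with an interval of 2 SE from -1.27 to 0.56. It ran from -0.59 to -0.08 with 1 library left out at a time and was -1.82 with the hepatocyte score as covariate (adjusted p = 0.305). At this depth neither a fall by 1 log2 unit nor a rise of 0.5 could be told from no difference.

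Ehhadh encodes the peroxisomal bifunctional enzyme, a textbook target of PPAR-alpha, and lies on chromosome 16 at 21761287 to 21787807. It held 0.772 to 6.75 CPM in control (median 2.09) and 0.418 to 4.37 CPM under the diet (median 1.44), from 17 to 162 and from 10 to 160 counts. These ranges overlapped, and the highest control value was replicate 1 of ZT18, which stands apart. The log2 difference over all times was -0.26 ± 0.38 (adjusted p = 0.609), with an interval of 2 SE from -1.03 to 0.51. Without that library it was 0.016 (adjusted p = 0.999).

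**Figure D3:**
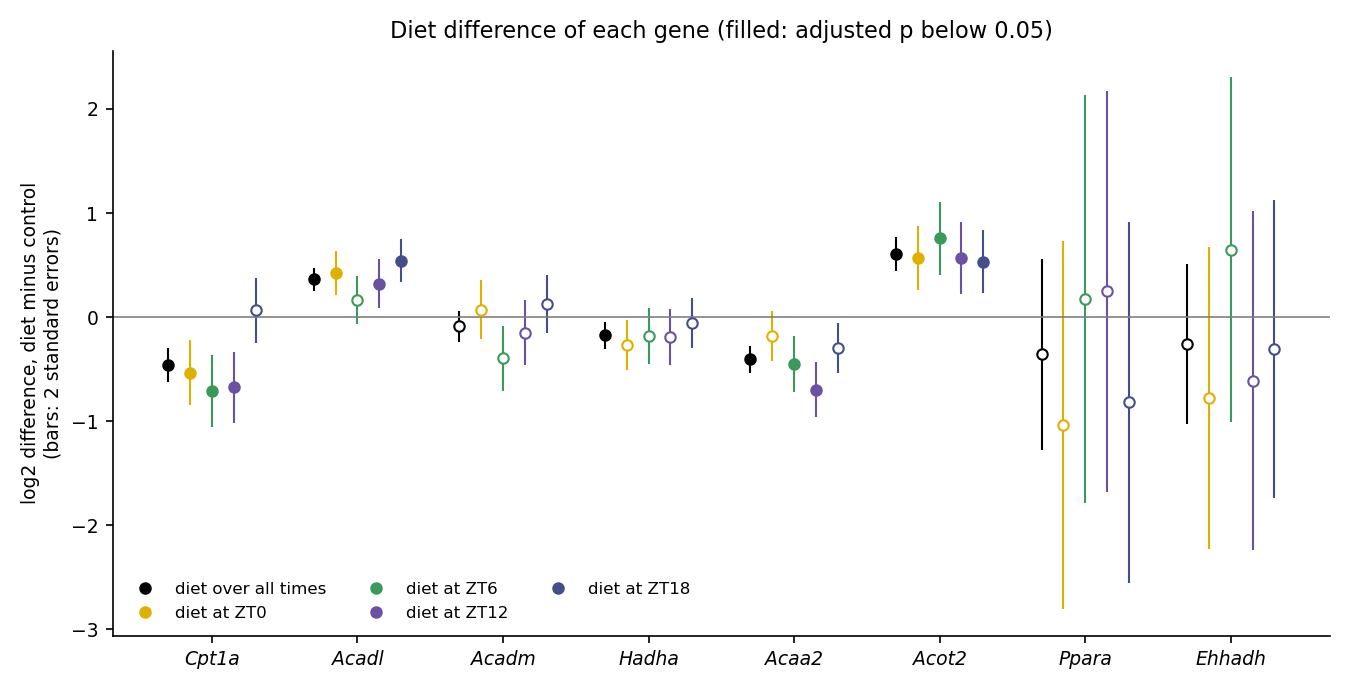
Log2 difference, diet minus control, of each gene over all 4 times (black) and at each zeitgeber time (colours), with bars of 2 standard errors; filled points have an adjusted p under 0.05. Acot2 is filled at every time, Cpt1a at all times but ZT18, and Ppara and Ehhadh have by far the longest bars.

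By time, 3 of 8 members were called at ZT0 (background 30.0%), 3 at ZT6 (30.1%), 4 at ZT12 (29.6%) and 2 at ZT18 (30.9%), near what all genes show. With a mean CPM of at least 5 the same members were called. Of all 10804 genes in that fit 6095, 6150, 5904 and 5937 were called at these times. Whether the diet difference varied with time was tested as an interaction over all genes, which called 0.959% of them. By edgeR 0 of 8 members passed; 1 had an unadjusted p under 0.05, and DESeq2 called 1. That member was Cpt1a in each case (unadjusted p = 0.00943, adjusted p = 0.179), which passed in DESeq2 (adjusted p = 0.0497) and with no filter on low counts (0.039). The absent call at ZT18 is therefore not shown to differ from the other times by the main test. Acaa2 came next, with an adjusted p of 0.35 for the interaction.

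The second question is whether these genes changed over the day. In control, 5.74% of all genes were called over the 4 times, and 1 of 8 members, Cpt1a (adjusted p = 0.00639). Its control means were 115 ± 22.6 CPM at ZT0 (SD, n = 3), 148 ± 5.3 at ZT6 (n = 2), 146 ± 11.7 at ZT12 (n = 2) and 78.8 ± 5.29 at ZT18 (n = 3). Those of ZT6 and ZT12 do not differ beyond their spread, and all 3 libraries of ZT18 lay below all 7 others. Markers of other cells moved with these times in control. Endothelial markers summed to 25100 to 26750 CPM at ZT18 and lymphocyte markers to 1327 to 1512 CPM. At the other times they summed to 31360 to 39450 and 503 to 941 CPM, apart from replicate 2 of ZT0 (20240 and 1964 CPM). Kupffer cell and macrophage markers summed to 534.9 to 600.5 CPM at ZT18 and to 683 to 3448 CPM at the other times. Those of neutrophils and dendritic cells summed to 283 to 364 CPM and to 378 to 968 CPM. Over the times in control 12 of 15 Kupffer cell and macrophage markers were called, and 4 of 10 of neutrophils and dendritic cells. Of endothelial markers 2 of 15 were called, and of lymphocyte markers 5 of 15. Stellate cell and fibroblast markers summed to 469 to 935 CPM at ZT18 and to 182 to 554.5 CPM at the other times. Of these 1 of 15 was called. Erythroid markers, 5 of 7 of them called, summed to 3275 and 2648 CPM at ZT12 and to 1222 to 2106 CPM at the other times. The 9 adrenal cortex markers, a tissue that the labels do not name, summed to 276 to 807 CPM at ZT18, to 28.1 and 396 CPM at ZT12 and to 4.45 to 11.1 CPM at ZT0 and ZT6. Under the diet they summed to 327 CPM in replicate 1 of ZT18 and to 8.51 to 28.5 CPM in the other libraries. The part of these cells in the time change of Cpt1a was not tested. Hepatocyte markers at ZT18, 604 to 823 CPM, lay inside the range of the other control libraries. Cpt1a correlated with their score among replicates (r = 0.54), and their part in its time change was not tested beyond a covariate fit. Cpt1a stayed called over the times in control in all 32 alternatives run, that fit included (adjusted p at most 0.0399). The highest mean was 1.88 times the lowest in control and 1.155 times under the diet, where the means ran from 79.3 to 91.6 CPM. Acaa2 in control was highest at ZT12, with 180 ± 3.54 CPM (n = 2) against 130 to 140 CPM at the other times, and was not called (adjusted p = 0.0884; 0.0195 in DESeq2). Hadha in control fell from 229 ± 16.4 CPM at ZT0 (n = 3) to 172 ± 20.6 CPM at ZT18 (n = 3) in its means and was not called either (adjusted p = 0.136; 0.0441 in DESeq2, and 0.0466 without replicate 2 of control ZT12). Under the diet 1.08% of genes were called over the times. Of the members 0 were called there by edgeR, 0 had an unadjusted p under 0.05, and DESeq2 called 0; the adjusted p of Cpt1a was 0.902. A call in control and none under the diet is not a difference between them, which is the interaction above.

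Other genes of the pathway were taken from lists by role and described by count. Of 113 such genes 110 were tested, and 37 were higher and 27 lower under the diet over all times, near the 52.4% of all genes. With scaling by library size only these counts were 49 and 21, and over all 22409 tested genes 7635 and 4557. For each list below the background in the main fit is 27.5% higher and 24.9% lower. Up to 4 genes per list are named, those with the smallest p.

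In the carnitine shuttle 2 of 6 tested genes rose and 2 fell. Slc22a5, the carnitine importer of the cell surface, changed by -1.22 ± 0.12 (log2, adjusted p = 1.88e-08), from 16.5 ± 3.1 to 7.1 ± 1.47 CPM (SD, n = 10 and 12). Crat, which moves acetyl groups between CoA and carnitine, changed by -1.08 ± 0.10 (adjusted p = 1.53e-08). Slc25a20, the carnitine carrier of the inner membrane, rose from 19.4 ± 3.92 to 27.6 ± 2.42 CPM (0.51 ± 0.08, adjusted p = 1.84e-05), and Crot, the peroxisomal carnitine octanoyltransferase, by 0.46 ± 0.06 (adjusted p = 3.13e-06). The outer membrane enzyme Cpt1a and the surface importer were lower and the inner membrane carrier higher in the same libraries.

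Among 11 acyl-CoA synthetases and transporters, which activate fatty acids, 4 rose and 2 fell. Acss1, the mitochondrial acetyl-CoA synthetase, rose from 7.57 ± 2.19 to 56.3 ± 6.01 CPM (2.97 ± 0.12, adjusted p = 9.66e-15). The fatty acid transporter Slc27a1 went from 17.5 ± 5.71 to 65.2 ± 13.4 CPM (2.02 ± 0.12), and Acsl4, which prefers arachidonate, changed by 0.69 ± 0.09, while Acsl5 changed by -0.40 ± 0.06. All 4 had an adjusted p under 0.05 and kept that call in every alternative run.

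In the mitochondrial spiral 4 of 19 tested genes rose and 10 fell, with a median log2 difference of -0.29 against 0.08 over all genes; with scaling by library size only 6 rose and 6 fell. Acad12 fell from 19.6 ± 5.02 to 4.09 ± 1.16 CPM (-2.29 ± 0.17, adjusted p = 2.19e-10). Acadsb and Acad8, dehydrogenases of branched-chain amino acid breakdown, changed by -1.11 ± 0.10 and -0.69 ± 0.08. Acadvl, the very-long-chain dehydrogenase of the inner membrane, rose from 44.3 ± 4.86 to 60.3 ± 4.01 CPM (0.44 ± 0.06, adjusted p = 5.58e-06), the same direction as Acadl. Those that fell include enzymes of amino acid breakdown, so the list is wider than fatty acids.

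Of 17 peroxisomal genes 7 rose and 5 fell. Acox3, a peroxisomal oxidase of branched chains, rose from 36.8 ± 4.21 to 54.8 ± 4.48 CPM (0.57 ± 0.07). Abcd4, a cobalamin transporter of the same family as the peroxisomal fatty acid transporters, changed by -0.88 ± 0.11. The racemase Amacr, which acts on branched chains and bile acid intermediates, changed by -0.83 ± 0.14. Among 10 tested acyl-CoA thioesterases besides Acot2, 5 rose and 0 fell. Acot7 went from 39.3 ± 12.9 to 140.7 ± 18.6 CPM (1.88 ± 0.13, adjusted p = 1.46e-10) and the peroxisomal Acot8 from 17.3 ± 2.35 to 22.8 ± 2.18 CPM (0.38 ± 0.08). Acot4 was near the detection limit, at 0 to 0.954 CPM in control and 0.335 to 1.67 CPM under the diet (adjusted p = 0.00564).

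Of 6 ketone body genes 2 rose and 1 fell. Bdh1, which reduces acetoacetate, rose from 3.64 ± 1.98 to 11.1 ± 3.14 CPM (1.59 ± 0.26, adjusted p = 1.94e-05). Oxct1, which uses ketone bodies and is normally absent from hepatocytes, was at 81.7 ± 6.34 and 90.8 ± 11.3 CPM and was not called (log2 0.16, adjusted p = 0.0561). Oxct1 was called higher in 12 of 34 alternatives, among them RLE scaling (adjusted p = 0.0299), DESeq2 (0.0227), a mean CPM of at least 5 (0.00471) and scaling by library size only (log2 0.34, adjusted p = 0.000221).

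Among 25 regulators 4 rose and 5 fell, and with scaling by library size only 9 rose and 5 fell. That scaling moved all genes, to 7635 of 22409 higher and 4557 lower. Rxra, a partner of PPAR-alpha on DNA, fell from 49.7 ± 6.56 to 17.3 ± 3.63 CPM (-1.53 ± 0.10, adjusted p = 2.32e-11), and Rxrg from 5.19 ± 2.13 to 1.08 ± 0.657 CPM (-2.32 ± 0.34). The coactivator Ncoa1 changed by 0.53 ± 0.10, a call that ended without ZT6 (adjusted p = 0.0593), and Lpin2, a phosphatidate phosphatase, by 0.47 ± 0.09. In the list of PPAR-alpha targets, which includes the members Cpt1a and Ehhadh, 10 of 20 rose and 4 fell, with a median of 0.83. Over all genes 27.5% were higher and 24.9% lower, with a median of 0.08. With the hepatocyte score as covariate 3 genes of the list rose and 3 fell, with a median of 0.18. Ucp2, the mitochondrial carrier abundant in immune cells, rose from 1049 ± 161 to 1936 ± 243 CPM (0.88 ± 0.05, adjusted p = 5.38e-12), and Pdk4, which restrains glucose oxidation, fell from 6.51 ± 1.9 to 1.11 ± 0.608 CPM (-2.60 ± 0.24, adjusted p = 8.71e-09).

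**Figure D4:**
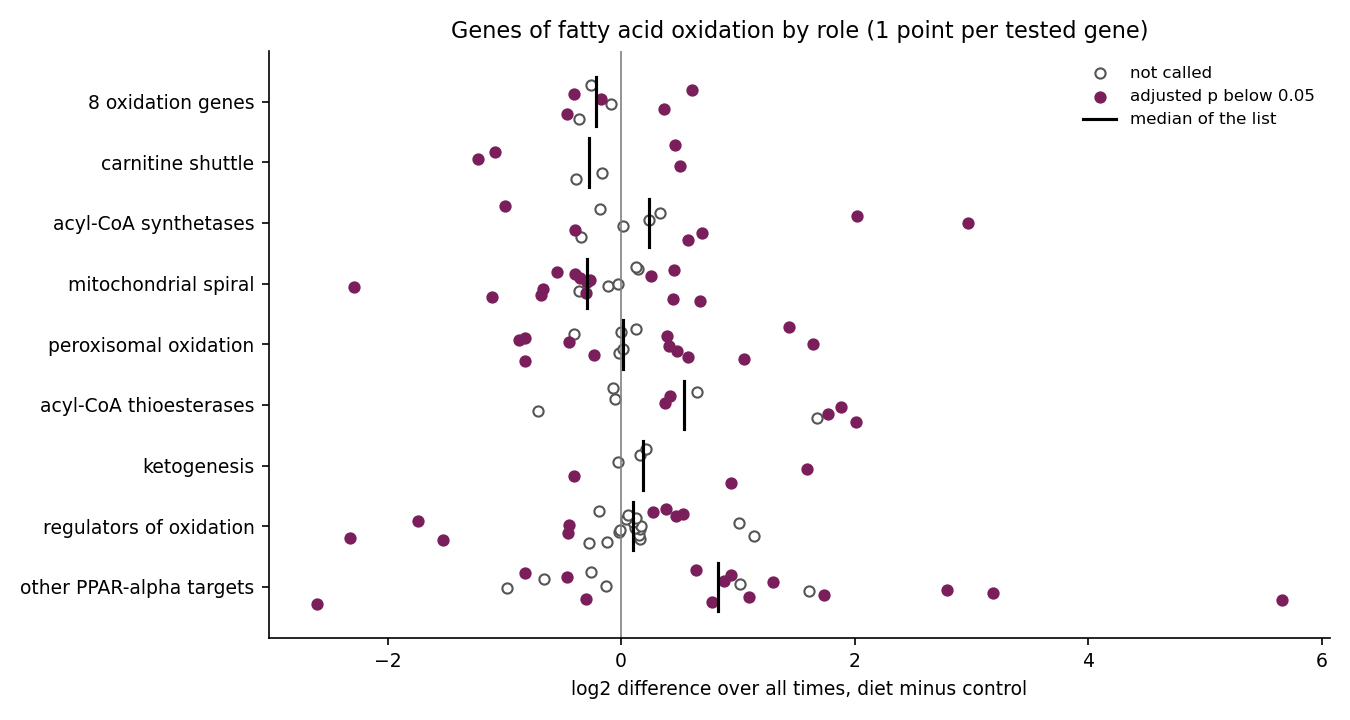
Log2 difference over all times, diet minus control (horizontal axis), of each tested gene by role list, with filled points for an adjusted p under 0.05 and a bar at the list's median. In the mitochondrial list 10 genes fell and 4 rose, and no thioesterase was called lower; the point farthest right is Fgf21, at 0 to 0.0558 CPM in control.

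Over the times, 11 of the 110 genes were called in control (5.74% of all genes), 2 under the diet (1.08%) and 2 in the interaction (0.959%), so the last 2 counts are near the background. The latter 4 calls fall to Acsl4, Lpin1 and Bdh2, named after their values were seen. Under the diet Acsl4 ran from 22.3 ± 2.78 CPM at ZT0 to 49.8 ± 9.06 CPM at ZT18 (SD, n = 3 each; adjusted p = 0.00779). Lpin1, a phosphatidate phosphatase and coactivator of PPAR-alpha, ran from 114 ± 4.37 CPM at ZT0 to 51.5 ± 1.67 CPM at ZT18 under the diet (adjusted p = 0.00504), and from 62.7 to 75.4 CPM in its control means. Its interaction had an adjusted p of 0.0359, and that of Bdh2, at 0.279 to 3.82 CPM over the control libraries, 0.0374. With 24 h cosine terms in place of group means both diet calls ended (adjusted p = 0.177 for Acsl4 and 0.436 for Lpin1), as did both interaction calls (0.359 for Lpin1 and 0.216 for Bdh2). That of Bdh2 was lost too without the filter (0.126), with the hepatocyte score as covariate (0.109) and with the replicate number as a block (0.0563). Both interaction calls were lost when single libraries were left out, 10 in turn for Lpin1 (adjusted p up to 0.0821) and 14 for Bdh2 (up to 0.162).

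Hepatocytes carry much of the liver's fatty acid oxidation, and their markers moved with the diet. Albumin, their main secreted protein, ran from 88.9 to 191 CPM in control and from 326 to 815 CPM under the diet, without overlap. The mean log2 CPM of the hepatocyte list was 3.35 to 4.42 in control and 4.10 to 5.32 under the diet. With that score as a covariate 5412 of all 22409 tested genes were called over all times, against 11748 without it. Of the members 1 of 8 stayed called, Cpt1a (log2 -0.85, from -0.46). The other 4 kept their direction and lost the call: Acadl 0.30 (adjusted p = 0.125), Acot2 0.41 (0.154), Acaa2 -0.39 (0.0803) and Hadha -0.36 (0.0886). Of the 29 pathway genes that the naming rule picks and that were called, 9 lost the call as well, among them Slc25a20, Acadvl, Acox3, Acot1, Acot4, Acot8, Ncoa1 and Lpin2. Over the 110 pathway genes 12 were then higher and 13 lower, against 37 and 27. By list, 1 and 3 genes of the mitochondrial spiral were higher and lower, 0 and 3 of the peroxisomal genes, 1 and 0 of the thioesterases, 1 and 2 of the carnitine shuttle, 3 and 1 of the synthetases, 1 and 1 of the ketone body genes and 2 and 2 of the regulators. Since the score itself differs between the diets, its part and that of the diet cannot be told apart by this fit. Without both control libraries that stand apart, 5 of 8 members were called over all times, as with them.

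Last, the members were compared by how they varied among replicates. The measure was Pearson's r of log2 CPM deviations from the 8 group means over 22 libraries, as a description; the libraries share depth and cell makeup. Among the members, the highest values were 0.60 for Cpt1a with Acot2 and 0.58 for Hadha with Acot2. Without the 2 libraries that stand apart Acadm with Ehhadh, at 0.315 with them, was highest at 0.575, ahead of 0.566 and 0.524 for these pairs. Acadl with Acaa2 gave 0.09, and Cpt1a with the hepatocyte score 0.54. The genes most like Cpt1a were Atp9a (r = 0.87), Fgfr3 (0.82) and Prox1 (0.80), the last a regulator of hepatocyte and lymphatic identity. Those most like Acadl were Fkbp15 (0.86), Abhd14b (0.85) and Mief1 (0.83), a factor of mitochondrial fission. For Acadm they were Pdcl (0.87), Ampd3 (0.86) and Nsf (0.85), which fell to 0.76, 0.70 and 0.77 without the 2 libraries that stand apart. For Hadha they were Grm8, Aldh3b1 and Ndc1 (0.80 to 0.86), for Acaa2 Snap23, Nckap1 and Fxyd1 (0.78 to 0.79), and for Acot2 Snai1, Col18a1 and Tbca (0.80 to 0.83). Ppara, with few counts, was most like Cox14, Mpp6 and Tmem231 (0.78 to 0.79), and Ehhadh like Desi2, Parn and Ttyh3 (0.80 to 0.86). No gene was among the closest 3 of more than 1 member. Because each is the top of a search over many genes, a high r is partly a product of that search. Even Ppara, with few counts, reached 0.794, and the lowest top value of a member was 0.79, for Acaa2.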

How the data were processed

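The data are RNA-seq libraries of mouse liver cells. The submitters' processing notes name STAR 2.7.9a, HTSeq and DESeq2, and the builds GRCm38 and mm10. Which annotation and strand setting were used, how cells were isolated and what batches there were is not given in the sources used here. Reads of genes that overlap thus cannot be separated. Annotated genes that overlap Acadl, Hadha or Ehhadh held at most 13 counts in a library, and none overlapped the other members. Reads shared with a member and dropped in the counting would not appear in these counts, so their number is not known. The authors deposited whole-number read counts per gene, which were used here; their normalised table was not used. Groups came from the sample titles and columns were matched by the labels' descriptions.

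Counts were tested with edgeR 4.0.16 (with limma 3.58.1, R 4.3.3): filterByExpr with the 8 groups, TMM scaling, and glmQLFit and glmQLFTest on 1 model with a mean for each group, so that groups of 2 share the spread of all. The diet was contrasted as the average over the 4 times and at each time, and F tests covered the 4 times within each diet and the interaction. Benjamini-Hochberg adjustment ran over all genes tested, and called means an adjusted p under 0.05. Log2 CPM used a prior count of 2, and CPM values are counts over the TMM-scaled library size. The tests were also run on simulated counts in which few genes changed. Far more genes were called in these data, so that run does not vouch for the calls here. No 2 replicates agreed within sampling noise (lowest chi-square 17.477 per degree of freedom), so none was merged.

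The members and lists were chosen with earlier results of these data known. All members are named. Other genes are up to 4 per list with the smallest p for diet over all times, genes in an interaction or a diet time count of 5 or fewer, Hadhb, and the 3 genes (mean log2 CPM of at least 2) most like each member. Some genes that this rule picks are not reported here. Positions and lengths come from GENCODE M21 on GRCm38. Alternatives were DESeq2 1.42.0, other scalings (RLE; library size only), other filters (none; mean CPM 5 or more), the replicate number as a block, 24 h cosine terms, a hepatocyte score as covariate and a fit of the compared groups alone. Each library, each time and both control libraries that stand apart were also left out.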

Additional observations from a re-analysis of the deposited data

How the results depend on the processing

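The values of the 8 members and their calls are limited by depth for Ppara and Ehhadh, by groups of 2 control libraries at ZT6 and ZT12, and by the scaling. Scaling by library size only moved the median log2 difference of all genes over all times from 0.08 to 0.25 and the calls from 6161 higher and 5587 lower to 7635 and 4557. Over all times it moved Cpt1a from -0.46 to -0.28 and Acaa2 from -0.41 to -0.23, and both stayed called.

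With the hepatocyte score as covariate the genes called were 5412 over all times (11748 without it), 3654 at ZT0 (6719) and 2232 at ZT18 (6916), 93 over times under the diet (241) and 119 in the interaction (215); members called were 1 over all times (5), 1 at ZT0 (3), 2 at ZT12 (4) and 0 at ZT18 (2). With no filter on low counts 2 members were called at ZT12, 1 at ZT18 and 1 in the interaction (0), and the genes called were 2866 over times in control (1287), 1500 under the diet and 2085 in the interaction. In DESeq2 these were 3084, 1095 and 1438, with 3 members over times in control (1) and 1 in the interaction. With 24 h cosine terms they were 709, 24 and 40. With only the groups compared, 2 members were called at ZT12, and 241 genes over times in control and 418 under the diet. A mean CPM of at least 5 gave 425 genes under the diet and 388 in the interaction, library size only 561 under the diet, and leaving out both control libraries that stand apart 632 and 1004. Leaving out 1 library at a time gave 10920 to 11950 genes over all times and 4 to 5 members, 2 to 3 members at ZT0, 2 to 4 at ZT6, 2 to 4 at ZT12 and 2 to 3 at ZT18. It gave 790 to 1957 genes and 1 to 2 members over times in control, 96 to 663 genes under the diet and 76 to 1086 in the interaction, with 0 members in both.

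Some log2 differences changed sign, none of them called except that of Hadha over all times. With the score, Ppara went from 0.18 to -0.39 at ZT6 and from 0.25 to -1.07 at ZT12, Cpt1a from 0.07 to -0.53 at ZT18, and Acadm from 0.07 to -0.035 at ZT0 and from 0.13 to -0.018 at ZT18. With library size only, Acadm went from -0.09 to 0.092 over all times and from -0.15 to 0.062 at ZT12, and Hadha to 0.005 over all times, 0.082 at ZT6, 0.028 at ZT12 and 0.064 at ZT18. Without ZT6 Acadm was 0.016 over all times. Without both control libraries that stand apart Ppara was 0.293 (-0.82 with them) and Hadha 0.024 at ZT18, Acadm -0.089 at ZT0, and Ehhadh 0.008 over all times and 0.804 at ZT18. With 1 library left out at a time Ppara ran from -0.44 to 1.19 at ZT6, from -0.69 to 0.58 at ZT12 and from -1.53 to 0.29 at ZT18. Cpt1a ran from -0.02 to 0.12 at ZT18, and Acadm from -0.089 to 0.178 at ZT0. Hadha ran from -0.43 to 0.087 at ZT12 and from -0.147 to 0.024 at ZT18. Ehhadh ran from -0.42 to 0.016 over all times, from -1.15 to 0.32 at ZT12 and from -0.84 to 0.805 at ZT18. Apart from what a scaling does to all genes, the cause of these changes was not tested.

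The replicate numbers showed no pairing of the samples over all genes. Over 71 pairs of same-numbered libraries of different groups the deviations correlated with a mean r of -0.005, from -0.143 to 0.138. Over 140 pairs with different numbers the mean was 0.002, from -0.138 to 0.178. A batch or pairing that touches few genes could not be seen this way. With the number as a replicate block 11500 genes and 5 members were called over all times and 123 genes in the interaction; Acadl at ZT12 and the interaction of Bdh2 lost their calls (adjusted p = 0.0805 and 0.0563) and Acadm at ZT6 gained one (0.0424).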
